A study of Mus musculus with 6 samples.

Results

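The transcripts described here are those of 10 genes used as markers of mesenchymal cells and fibroblasts: *Vim*, *Fn1*, *Sparc*, *S100a4*, *Dcn*, *Lum*, *Pdgfra*, *Pdgfrb*, *Fbn1* and *Postn*. They were taken by name from a table of 54418 genes, with no measured value in the rule but with earlier results of these data known, and all 10 were among the 21236 genes with enough counts to be tested. The cells came from the mammary glands of 4-week-old female C57BL/6 mice, either Glis2 wild type (WT, Glis2+/+) or Glis2 mutant (KO, Glis2-/-, a germline knockout), so that every cell type of a KO gland carried the mutation. Dissociated cells were stained for viability, for TER-119, CD31 and CD45, which mark blood and endothelial cells, and for CD24 and CD49f, which separate mammary populations, and were then sorted as mammary epithelial cells. Total RNA of the sorted cells was sequenced in 3 WT and 3 KO libraries, 1 per mouse, with totals of 24996524 to 31393917 estimated counts. The p-values below therefore measure the spread between these mice, and no litter, sort day or sorter is assigned to a library.

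A fibroblast builds the connective tissue around the mammary ducts by secreting collagens, fibronectin and proteoglycans, and it receives growth signals through PDGF receptors. An epithelial cell that passes through an epithelial-mesenchymal transition (EMT) switches on part of the same set, vimentin and fibronectin in particular, which is why these genes are read as mesenchymal markers in breast epithelium. Several members are not exclusive to fibroblasts, since vimentin is also made by endothelial, mural and immune cells, PDGFRβ by pericytes, and SPARC by many cells that lay down a basement membrane.

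*Glis2* itself (chromosome 16, 4594713 to 4624924, GRCm38) was read first. It was at 21.7, 23.2 and 19.6 CPM (counts scaled to library size, with edgeR's TMM factors) in WT replicates 1, 2 and 3 and at 10.1, 17.0 and 16.3 CPM in KO replicates 1, 2 and 3. All KO libraries were below all WT libraries, but the transcript was present in each of them, with 252 to 510 counts, so that the genotype is taken from the labels. In edgeR the log2 fold change was -0.57 ± 0.22 (standard error) and its adjusted p 0.906. On the log2(TPM + 1) scale in limma the difference was -0.02 (adjusted p = 0.984), so that the lower level in KO was seen in the counts and not in the TPM values.

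None of the 10 marker genes differed between the genotypes by the test. With edgeR's quasi-likelihood test, 0 of 10 passed an adjusted p of 0.05 and an absolute log2 fold change of 0.58, beside 0% of all genes tested, and 0 of 10 had an unadjusted p under 0.05, beside 5.32% of all genes. DESeq2 with apeglm shrinkage also called 0 of 10, and it called 0.197% of the genes it tested. For no member did the 3 libraries of one genotype all lie above the 3 of the other, an arrangement seen for 11.7% of all genes tested. The fitted change was below 0 (lower in KO) for 7 members and above 0 for 3, and 48.4% of all genes were below 0. The median over the 10 was -0.06 on the log2 scale, beside 0.01 over all genes. All 10 of the 95% intervals included 0, and all 10 also extended past a change of 0.58 in at least 1 direction, so that a change of that size was neither shown nor left out by these libraries.

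The libraries of one genotype differed widely from each other. WT replicate 2 was the lowest WT library for all 10 genes, and KO replicate 2 was the lowest KO library for 9 of them, the exception being *Pdgfra*. These libraries were the 2 lowest of the 6 for 8 genes, the exceptions being *S100a4* and *Pdgfra*. The highest WT library exceeded the lowest by a larger factor than separated the genotype means for 9 genes, all but *S100a4*, and the same held within KO for all 10. A ratio of extreme libraries tends to exceed a ratio of means. The share over all genes was not computed, so these counts do not weigh one difference against the other. Together the 10 genes took 0.416%, 0.200% and 0.397% of the counts of WT replicates 1, 2 and 3 and 0.317%, 0.228% and 0.409% of those of KO replicates 1, 2 and 3. In bulk RNA of sorted cells, fewer cells of a type and less RNA per cell cannot be told apart.

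**Figure D1:**
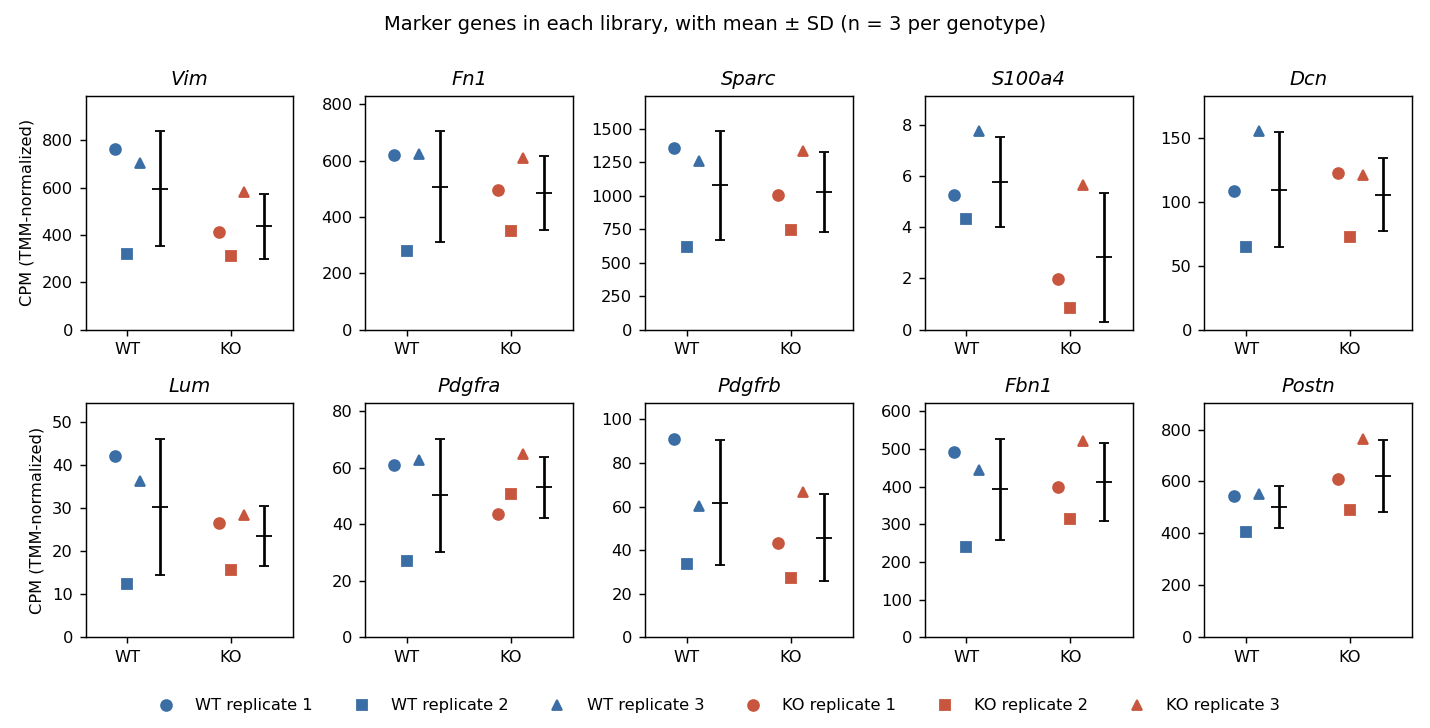
Each panel plots one of the 10 genes, with TMM-normalized CPM on the vertical axis from 0 and genotype on the horizontal axis. Points are the single libraries (circle, square and triangle for replicates 1, 2 and 3) and bars are the mean ± SD of 3 libraries, and replicate 2 is the lowest WT point in every panel and the lowest KO point in 9 of them.

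*Vim* (chromosome 2, 13573927 to 13582826) encodes vimentin, the intermediate filament protein of mesenchymal cells. It was at 765, 319 and 704 CPM in WT replicates 1, 2 and 3 and at 414, 311 and 582 CPM in KO replicates 1, 2 and 3. WT replicate 2 lay among the KO libraries while the other WT libraries were above all of them, so the genotypes overlapped. The means were 596 ± 242 CPM in WT and 436 ± 137 CPM in KO (SD, n = 3), and the log2 fold change was -0.45 with a 95% interval of -1.20 to 0.30 (adjusted p = 0.941, edgeR). It was -0.25 without WT replicate 1 and -0.75 without WT replicate 2. Among 6 other intermediate filament genes, which included *Lmna* (the gene of the nuclear lamins A and C, also made by epithelial cells), *Synm* and *Nes*, 5 were fitted lower and 1 higher in KO, and 0 were called.

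*S100a4* (chromosome 3, 90603771 to 90606045) encodes a small calcium-binding protein, also called fibroblast-specific protein, that is found in fibroblasts and in immune cells. It was the scarcest of the 10 by counts, with 162, 124 and 202 counts in WT replicates 1, 2 and 3 and 50, 25 and 177 counts in KO replicates 1, 2 and 3. The first and second KO libraries were below every WT library, but KO replicate 3 was above WT replicates 1 and 2. The means were 5.78 ± 1.77 CPM in WT and 2.83 ± 2.52 CPM in KO (SD, n = 3), and the log2 fold change of -1.03 was the largest of the 10 in size, with a 95% interval of -2.44 to 0.39 (adjusted p = 0.933, edgeR). The value was -2.05 without KO replicate 3 and -0.59 without KO replicate 2. A gene model on the same strand, Gm42674, overlaps *S100a4*, and it was listed at 0 counts in all 6 libraries. Of 12 other S100 genes 10 were tested, with 7 fitted higher and 3 lower and 0 called, and the most abundant, *S100a6*, was at 211 ± 28.3 CPM in WT and 209.6 ± 24.8 CPM in KO.

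The matrix glycoprotein genes among the members are *Sparc*, *Fn1*, *Fbn1* and *Postn*. *Sparc* (chromosome 11, 55394500 to 55423183) encodes osteonectin, which binds collagen and calcium. It was at 1355, 613 and 1259 CPM in WT replicates 1, 2 and 3 and at 1007, 740.1 and 1336 CPM in KO replicates 1, 2 and 3. *Fn1* (chromosome 1, 71585520 to 71653200), the gene of fibronectin, was at 619, 280.4 and 623 CPM in WT and 496, 351 and 610.4 CPM in KO, in the same order of replicates. Both genes had their lowest value in WT replicate 2 and their next lowest in KO replicate 2, and for *Sparc* the other libraries of both genotypes were intermixed, while for *Fn1* WT replicates 1 and 3 were above KO replicates 1 and 3. Their log2 fold changes were -0.07 for *Sparc* (95% interval -0.75 to 0.62) and -0.06 for *Fn1* (95% interval -0.76 to 0.63), each smaller than its standard error of 0.30. The ratio of *Sparc* to *Fn1* counts hardly moved between libraries, at 2.13 ± 0.097 in WT and 2.11 ± 0.079 in KO (SD, n = 3), and no other pair of members had library patterns as alike as these.

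*Fbn1* (chromosome 2, 125300594 to 125507993) encodes fibrillin-1, the core of the microfibrils on which elastic fibres form. It was at 493, 240.0 and 446 CPM in WT replicates 1, 2 and 3 and at 399.6, 315 and 522 CPM in KO replicates 1, 2 and 3, with the highest value in a KO library and the lowest in a WT library. The log2 fold change was 0.07 (95% interval -0.55 to 0.69, adjusted p = 0.989 in edgeR). Among 12 other elastic fibre and microfibril genes, 7 were fitted higher and 5 lower in KO and 0 were called. *Eln*, the gene of elastin, was the most abundant of these, at 229 ± 57.5 CPM in WT and 215 ± 45.9 CPM in KO (SD, n = 3).

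*Postn* (chromosome 3, 54361109 to 54391037) encodes periostin, a secreted protein that binds integrins and collagen. It was at 543, 407 and 553 CPM in WT replicates 1, 2 and 3 and at 611, 489 and 764 CPM in KO replicates 1, 2 and 3. KO replicates 1 and 3 were above every WT library, while KO replicate 2 lay below WT replicates 1 and 3. It had the highest log2 fold change of the 10, 0.31 with a 95% interval of -0.09 to 0.72 (adjusted p = 0.925, edgeR), and the smallest standard error, 0.18. It was 0.12 without KO replicate 3 and 0.45 without KO replicate 2. Its spread within WT was 1.36-fold, the narrowest of the members. Of 10 receptors and partners of fibronectin and periostin, among them the integrin genes *Itgb1* and *Itgav*, 5 were fitted higher and 5 lower, and 0 were called.

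*Dcn* and *Lum*, neighbours on chromosome 10 (97479609 to 97518143 and 97565128 to 97572703), encode decorin and lumican, small leucine-rich proteoglycans that bind collagen fibrils. *Dcn* was at 109, 65.0 and 155 CPM in WT replicates 1, 2 and 3 and at 123, 72.4 and 121 CPM in KO replicates 1, 2 and 3. *Lum* was at 42.1, 12.3 and 36.3 CPM in WT and at 26.4, 15.5 and 28.4 CPM in KO, in the same order. WT values lay on both sides of the KO values for both genes, and *Lum* had the widest spread within WT of the 10, 3.42-fold. Their log2 fold changes were -0.06 (95% interval -0.76 to 0.65) and -0.37 (95% interval -1.32 to 0.59), with adjusted p-values of 0.992 and 0.962 in edgeR. For *Lum* it was -0.070 without WT replicate 1 and -0.74 without WT replicate 2. The ratio of *Dcn* to *Lum* counts was 2.58, 5.29 and 4.27 in WT and 4.65, 4.68 and 4.27 in KO, so that WT replicate 1 stood apart with relatively more *Lum*. Of 11 other genes of the proteoglycan family 8 were tested, with 4 fitted higher, 4 lower and 0 called.

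The PDGF receptor genes mark different stromal cells, *Pdgfra* fibroblasts and *Pdgfrb* also pericytes. *Pdgfra* (chromosome 5, 75152292 to 75198215) was at 61.0, 27.2 and 62.6 CPM in WT replicates 1, 2 and 3 and at 43.8, 50.5 and 65.0 CPM in KO replicates 1, 2 and 3. *Pdgfrb* (chromosome 18, 61045150 to 61085061) was at 91.1, 33.7 and 60.5 CPM in WT and at 43.4, 27.0 and 66.8 CPM in KO, in the same order. The genotypes overlapped for both. The log2 fold changes were 0.08 for *Pdgfra* (95% interval -0.60 to 0.76) and -0.43 for *Pdgfrb* (95% interval -1.33 to 0.46), with adjusted p-values of 0.988 and 0.946 in edgeR. *Pdgfrb* rested on WT replicate 1, its highest library, and its log2 fold change was -0.06 without it. KO replicate 2 had 1.87 *Pdgfra* counts for each *Pdgfrb* count, while the other 5 libraries had 0.669 to 1.03.

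The ligands of these receptors were measured in the same libraries. All 4 PDGF ligand genes were fitted higher in KO and 0 were called. *Pdgfc* was at 66.5 ± 24.5 CPM in WT and 88.2 ± 21.7 CPM in KO (SD, n = 3), *Pdgfa* at 59.9 ± 9.12 and 60.8 ± 13.99 CPM, and *Pdgfb* at 27.7 ± 10.9 and 39.5 ± 5.50 CPM. Each of the 4 overlapped between the genotypes. Summed over the 4 ligands, the WT libraries held 140.4 to 173 CPM and the KO libraries 188 to 200.4 CPM, without overlap. The share of 11.7% for this arrangement is over single genes, and no share was computed for sums of lists. Of the 15 lists read beside the members, 3 had a sum without overlap, each with KO above: these ligands, the other small leucine-rich proteoglycans (320.5 to 357 CPM in WT and 392 to 446 CPM in KO) and the basal markers described below. The proteoglycan list had 4 genes fitted higher and 4 lower in KO. Its most abundant gene, *Prelp*, separated by itself, at 104 to 167 CPM in WT and 178 to 209 CPM in KO.

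**Figure D2:**
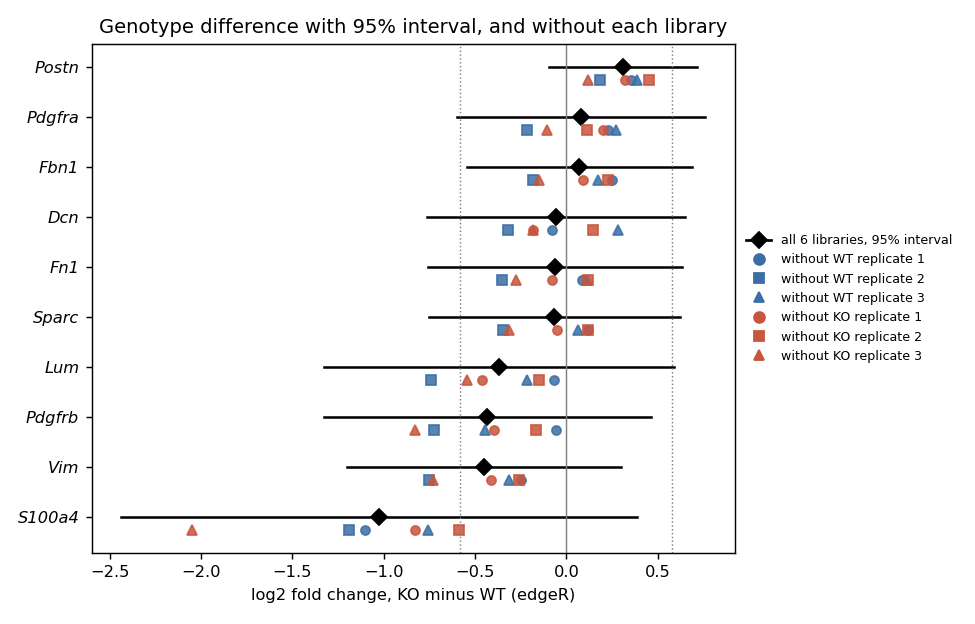
Black diamonds are the edgeR log2 fold change (KO minus WT) of each gene over all 6 libraries with its 95% interval, and coloured symbols below each are the fits without 1 library. Dotted lines mark a change of 0.58 in either direction, and every interval crosses 0, while the fits without 1 library lie on both sides of 0 for *Fn1*, *Sparc*, *Dcn*, *Pdgfra* and *Fbn1*.

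The members can be ranked by level only per transcript length, which the TPM values do (transcript abundance scaled to a fixed total, here as means of the 6 libraries). *Sparc* was first at 120.4 TPM, then *Vim* at 76.1, *Postn* at 49.8, *Fn1* at 27.3, *Dcn* at 15.1 and *Fbn1* at 8.85. Each of these was above the next in 6 of 6 libraries. *S100a4* at 3.24 TPM, *Pdgfra* at 3.04, *Lum* at 2.58 and *Pdgfrb* at 2.22 followed, and these neighbours changed places between libraries, each being above the next in 4, 5 and 4 of 6. *Sparc*, *Vim*, *Postn* and *Fn1* together held 87.6% to 89.6% of the summed TPM of the 10 genes, so that a summed score over the list is mainly a reading of these genes. Against the keratin of luminal cells, *Sparc* TPM was 29.9% to 104% of *Krt8* TPM in the same library, *Vim* 18.3% to 76.0% and *Pdgfra* 0.604% to 2.20%. An RNA annotated as a microRNA gene, Gm23935, held 83.0% to 85.7% of all TPM, which lowers every other TPM value but not the ratios.

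**Figure D3:**
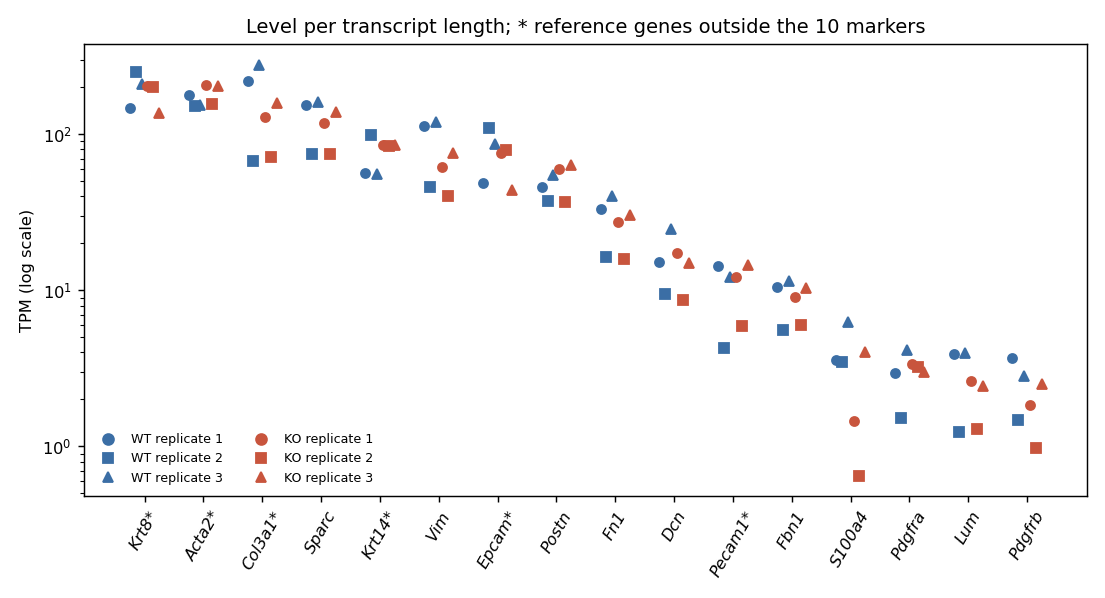
TPM on a log scale for the 10 genes and, marked with an asterisk, 6 reference genes of luminal (*Krt8*, *Epcam*), basal (*Krt14*, *Acta2*), collagen-producing (*Col3a1*) and endothelial (*Pecam1*) cells. Points are single libraries by genotype and replicate, and the 10 genes run from *Sparc* (mean 120.4 TPM) to *Pdgfrb* (mean 2.22 TPM).

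The libraries that were low in the members were also low in other fibroblast markers and, by the mean log2 CPM of each list, in mural, endothelial, adipocyte and Schwann cell markers. Over 30 other fibroblast markers, led by the collagen genes *Col3a1*, *Col1a1* and *Col1a2*, the summed level was 4173 CPM in WT replicate 2 and 4730 CPM in KO replicate 2, and 7079 to 11977 CPM in the other 4 libraries. Of these 30 genes 29 were tested, with 12 fitted higher and 17 lower in KO, a median log2 fold change of -0.09 and 0 called. *Col3a1* was at 2904 ± 1585 CPM in WT and 2124 ± 833 CPM in KO (SD, n = 3). *Tcf21*, a fibroblast transcription factor gene, was the marker not tested, with 1 count in 6 libraries. The endothelial markers, with CD31 itself among the antigens stained for the sort, reached 849 CPM in WT replicate 1 and 887 CPM in KO replicate 3 and 162 and 247 CPM in replicate 2 of WT and KO. Of these 10 genes 4 were fitted higher and 6 lower in KO.

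Markers of further cell types were read in the same libraries. All 10 mural cell markers were fitted lower in KO (median -0.43, 0 called, 2 with an unadjusted p under 0.05 in edgeR), with summed levels of 355 to 657 CPM in WT and 354 to 530.0 CPM in KO. The 10 adipocyte markers summed to 95.7 to 516 CPM in WT and 147 to 395 CPM in KO, the 6 Schwann cell markers to 271 to 462 and 288 to 340.1 CPM, and the 11 macrophage markers to 59.9 to 78.5 and 60.8 to 102 CPM. The macrophage sum was highest of WT in replicate 2 and the Schwann cell sum lowest of KO in replicate 1, although the means of the log2 values of both lists were lowest in replicate 2 of either genotype. *Cd14* alone held 46.1 of the 78.5 CPM of the macrophage sum in WT replicate 2. It was at 9.69 and 27.2 CPM in WT replicates 1 and 3. The 13 luminal markers ran the other way, from 5008 CPM in WT replicate 1 to 8267 CPM in WT replicate 2 and from 4908 CPM in KO replicate 3 to 8615 CPM in KO replicate 2. The 12 basal markers did not follow either order, at 5298 to 6792 CPM in WT and 7014 to 8512 CPM in KO, and all 12 were fitted higher in KO (median 0.38, 0 called, 6 with an unadjusted p under 0.05 in edgeR). Over all genes tested, 5.32% had such a p. Which cells carried the member transcripts was not tested, and their levels cannot be told apart from the makeup of the sort.

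**Figure D4:**
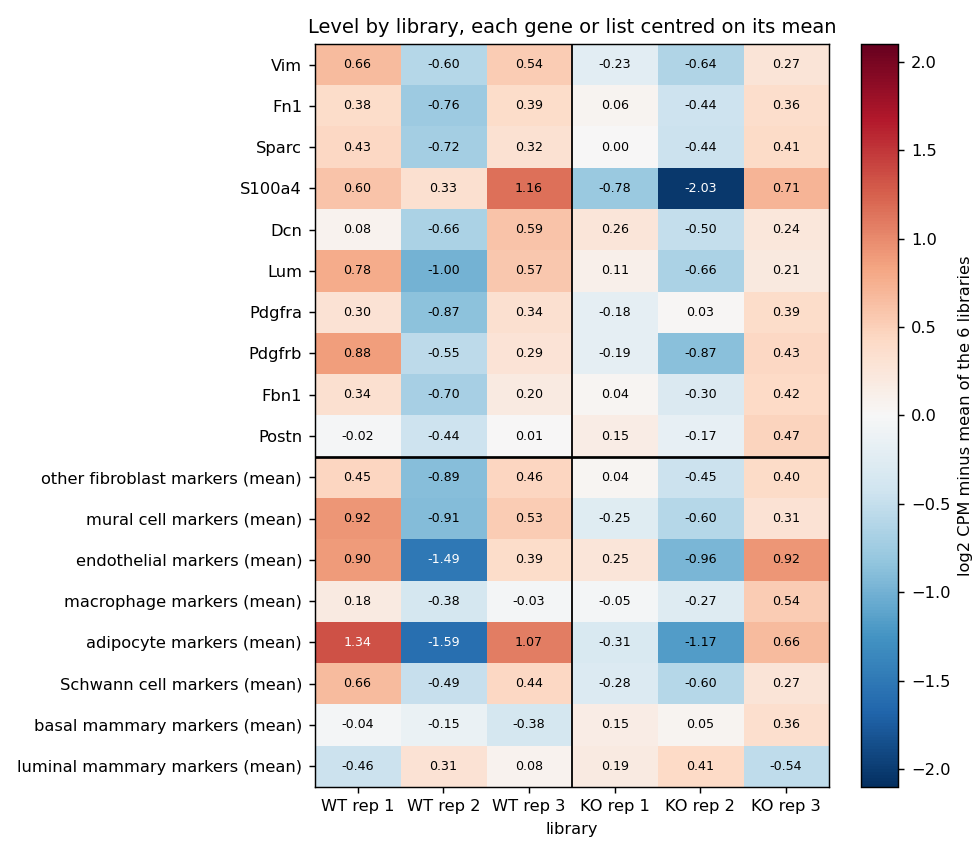
Each row is a member gene or the mean of a marker list, and each column a library, with colour and number giving log2 CPM minus the mean of the 6 libraries. Replicate 2 of either genotype is below the mean for 9 of 10 members (*S100a4* is above it in WT, *Pdgfra* in KO) and for the fibroblast, mural, endothelial, macrophage, adipocyte and Schwann cell lists (means of log2 values), while the luminal list is above it in the same libraries.

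The members did not follow the fibroblast list equally closely. Likeness was measured as the root mean square difference, over the 6 libraries, between log2 CPM values centred on their mean, so that 0 is an identical pattern. The other fibroblast markers were the nearest of the 8 marker lists for 5 members, *Fn1* (0.070), *Sparc* (0.094), *Fbn1* (0.15), *Dcn* (0.22) and *Pdgfra* (0.23). *Vim* was at 0.21 from the fibroblast list and nearer to the Schwann cell list, at 0.067, which was also nearest for *Pdgfrb* (0.17) and *S100a4* (0.78). The Schwann cell list has 6 genes, 4 fitted lower and 2 higher in KO, so nearness to its mean does not name a cell type. *Lum* was nearest to the mural list (0.17), with the fibroblast list close behind (0.19). The mean of the members was about as far from the Schwann cell list (0.139) as from the fibroblast list (0.145). *Postn* was at 0.35 from the fibroblast list, at 0.22 from the basal list and at 0.13 from the macrophage list, and *S100a4* was the farthest from the fibroblast list of the 10, at 0.94. Among 15251 genes with at least 50 counts per library on average, the 5 whose pattern was nearest to the mean of the members were *Tshz3* (0.075), *Hspg2* (0.083), *Gsap* (0.084), 4930503L19Rik (0.086) and *Ndn* (0.088). *Hspg2* encodes perlecan, a proteoglycan of basement membranes. These are descriptions over 6 libraries, in each of which all genes share the same depth and mix of cells.

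For 31 of the 45 pairs of members, the ratio within a library varied over the 6 libraries by a smaller factor than the level of either gene. The 14 exceptions included all 9 pairs with *S100a4*. Of the 45 ratios between members, 8 separated the 3 WT from the 3 KO libraries, and 5 of these 8 involved *Vim*. The counts of *Vim* for each count of *Fn1* were 1.24, 1.14 and 1.13 in WT replicates 1, 2 and 3 and 0.835, 0.888 and 0.954 in KO replicates 1, 2 and 3. Relative to *Sparc* they were 0.564, 0.520 and 0.559 in WT and 0.411, 0.420 and 0.436 in KO. Every KO library was thus below every WT library, WT replicate 2 included. The same held relative to *Fbn1* (1.33 to 1.58 in WT and 0.987 to 1.12 in KO), *Pdgfra* (11.2 to 12.5 and 6.16 to 9.46) and *Postn* (0.784 to 1.41 and 0.636 to 0.762).

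The size of this shift was a log2 difference of -0.37 relative to *Sparc*, -0.39 relative to *Fn1*, -0.50 relative to *Fbn1*, -0.56 relative to *Pdgfra* and -0.70 relative to *Postn*. Relative to *S100a4*, *Dcn*, *Lum* and *Pdgfrb* the genotypes overlapped. When *Vim* was set against every gene with counts in all libraries, 6.78% of 20013 ratios separated the genotypes, and for the other members this share lay between 3.35% (*Lum*) and 13.9% (*S100a4*). The 5 ratios share the *Vim* counts and are not independent, and *Vim* was singled out after its ratios were seen. The other 3 separating ratios were *S100a4* to *Dcn*, *S100a4* to *Postn* and *Pdgfrb* to *Fbn1*, each lower in KO, beside 13.9% of all ratios to *S100a4* and 5.73% of those to *Pdgfrb*.

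**Figure D5:**
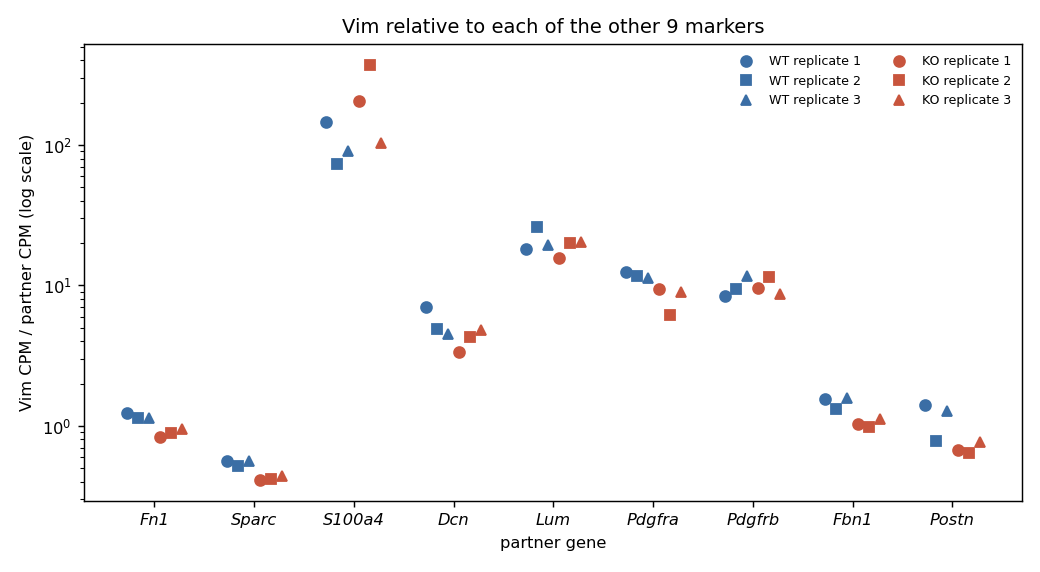
Counts of *Vim* per count of each of the other 9 genes, on a log scale, with 1 point per library. WT and KO points are separate for *Fn1*, *Sparc*, *Pdgfra*, *Fbn1* and *Postn*, with KO lower, and overlap for *S100a4*, *Dcn*, *Lum* and *Pdgfrb*.

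Set against the fibroblast list instead of single members, *Vim* gave results that depended on how the list was summarised. Its log2 CPM minus the mean log2 CPM of the other fibroblast markers was 3.06 ± 0.11 in WT and 2.67 ± 0.070 in KO (SD, n = 3), with all KO libraries below all WT libraries, and the other 9 members overlapped. Of all genes tested, 4.03% separated the genotypes on this scale. As a percentage of the summed CPM of the list, in which the collagen genes weigh most, *Vim* overlapped, at 5.87% to 7.64% in WT and 5.85% to 6.58% in KO, as did the other 9, beside 4.61% of all genes that separated. With the mean of the list as a covariate in edgeR, the log2 fold change of *Vim* was -0.39 (adjusted p = 0.219), and with the log2 of the sum, a fit added after seeing the data, it was -0.16 (adjusted p = 0.631). *Postn* was at 0.31 (adjusted p = 0.406) and 0.41 (adjusted p = 0.209) in these fits. None of the 10 genes was called in either, and 4 of 10 had an unadjusted p under 0.05 in each, beside 8.49% of all genes with the mean and 8.92% with the sum. With the mean these were *Vim*, *S100a4*, *Pdgfrb* and *Postn*, and with the sum *Fn1*, *Sparc*, *Fbn1* and *Postn*, so that only *Postn* was in both. The list holds markers of the same cell type, and its level followed several members. The covariate can therefore remove more spread from the members than from most genes. The shares over all genes are thus not a like comparison in these fits.

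Sequence upstream of the start was given by RefSeq (GRCm38.p6) for 6 of the 10 members, in 7 windows of 250 bases. The windows of *Vim*, *Sparc* and *Fbn1* lie inside the gene as annotated here, since other transcripts of these genes start further upstream. They were searched on both strands for the TATA box (TATAAA) and the CCAAT box. Further motifs searched were the GC box (GGGCGG), the E-box bound by EMT factors of the Snail and Zeb families (CAGGTG), and the AP-1 site (TGANTCA). None of these motifs overlapped another in a window. The windows of the genes with the lowest and the highest log2 fold change are shown, *S100a4* (chr3:90603520-90603769, plus strand) and *Postn* (chr3:54360857-54361106, plus strand, the second of its 2 starts), with the TATA box in capitals.
S100a4: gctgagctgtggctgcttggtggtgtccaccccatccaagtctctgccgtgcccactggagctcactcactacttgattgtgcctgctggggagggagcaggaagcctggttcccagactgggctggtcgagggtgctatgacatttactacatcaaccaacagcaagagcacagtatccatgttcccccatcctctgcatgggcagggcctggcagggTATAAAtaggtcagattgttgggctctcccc
Postn: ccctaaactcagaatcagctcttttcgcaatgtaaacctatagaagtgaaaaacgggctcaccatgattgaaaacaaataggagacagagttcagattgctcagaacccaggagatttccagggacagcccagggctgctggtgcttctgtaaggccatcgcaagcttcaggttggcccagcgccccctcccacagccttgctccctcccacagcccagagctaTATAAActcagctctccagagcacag
The TATA box began at -31 in *S100a4* and at -26 in *Postn*, counted from the base before the start as -1, and *Vim* had one at -32. Thus 3 of 7 windows held it, beside 12.4% of 32851 windows of the same length in the table. A CCAAT box was found in the *Vim* window at -196 and -94 (33.8% of all windows) and a GC box in that of *Fbn1* at -185 (32.7%). The E-box and the AP-1 site were in 0 of 7 windows, beside 17.2% and 6.75% of all windows, which says only that these letters are not in these windows.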

How the data were processed

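RNA from FACS-sorted mammary epithelial cells of 3 WT and 3 KO mice was analysed. The authors made libraries from 1 ng of total RNA with a stranded low-input kit and quantified reads with Salmon 1.2.1 on mm10 with Ensembl 100 and the genome as decoy. They assembled the values with tximport 1.18.0. The deposited estimated counts are whole numbers without normalization, so the count test planned was used. The deposited log2 values are of TPM with an offset of 1 and were turned back into TPM here. The strand setting of the counting is not given in the sources used here, so that reads of *Fn1*, *Pdgfra*, *Fbn1* and *Glis2* and of overlapping opposite-strand genes may be shared. Symbols and coordinates came from a GRCm38 annotation, which matched 54166 of 54418 identifiers.

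Counts were filtered with filterByExpr, normalized by TMM and tested with edgeR 4.0.16 (quasi-likelihood, R 4.3.3), with Benjamini-Hochberg adjustment over 21236 genes. Calls used the thresholds of the study, 0.05 for the adjusted p and 0.58 for the log2 fold change in either direction. The common biological coefficient of variation was 37.4%. The functions were tested on simulated data. Totals lay between 24996524 and 31393917, and the fewest counts of a member in a library were 25. No library was a copy of another (chi-square per degree of freedom of at least 20.5). Alternatives were DESeq2 1.42.0 with apeglm 1.24.0, DESeq2 size factors, other filters, limma 3.58.1 on log2 TPM with offsets of 1 and 0.1, a replicate block, leaving out each library and the level of the fibroblast list as a covariate. A covariate of the log2 summed CPM was added after seeing the data.

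The members and lists were chosen with earlier results of these data known. Named genes are the members, *Glis2*, the 3 most abundant genes of each list and the 5 genes nearest in pattern. *Tcf21*, Gm42674, Gm23935 and the reference genes of the TPM plot are outside this rule, as are the genes in the closing section, and were chosen after their values were seen.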

Additional observations from a re-analysis of the deposited data

How the results depend on the processing

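In the 15 alternatives run, 0 of the 10 members were called. Over all genes the count called was 0 in edgeR and became 46 with DESeq2 and apeglm, 40 without a filter on low counts, 1 with log2(TPM + 0.1) in limma, 4 with the mean of the fibroblast list as a covariate and 6 with its log2 summed CPM, and was 0 in the others. *Vim*, *S100a4*, *Pdgfrb*, *Postn* and *Glis2* did not change sign in any of the 15. With DESeq2 and apeglm all 11 values were shrunk to nearly 0, so that their sign is not informative. On log2 TPM in limma *Glis2* was at -0.02 with either offset. *Fbn1* was at -0.076 with log2(TPM + 1) and at -0.081 with log2(TPM + 0.1) in limma. *Fn1* was at 0.0015 with the mean of the fibroblast list as a covariate and, with its log2 summed CPM, *Fn1* was at 0.21, *Sparc* at 0.19, *Dcn* at 0.19 and *Lum* at 0.073. The cause was not tested.

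Without 1 library, the log2 fold changes ranged from -0.35 to 0.12 for *Fn1* and for *Sparc*, -0.32 to 0.28 for *Dcn*, -0.19 to 0.25 for *Fbn1*, -0.22 to 0.27 for *Pdgfra*, -0.74 to -0.070 for *Lum*, -0.75 to -0.25 for *Vim*, -0.83 to -0.06 for *Pdgfrb*, -2.05 to -0.59 for *S100a4* and 0.12 to 0.45 for *Postn*. *Glis2* ranged from -0.71 to -0.37. The median over the members was lowest without WT replicate 2 (-0.35) and highest without KO replicate 2 (0.11), and that of the other fibroblast markers was -0.45 and 0.14 in the same fits.

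Whether the replicate numbers pair the mice is not given. Over all genes tested, deviations of same-numbered libraries correlated at -0.02, 0.17 and 0.02. This cannot decide the question, since it weighs all genes alike. The mean centred log2 CPM of the members was 0.44, -0.60 and 0.44 in WT replicates 1, 2 and 3. In KO replicates 1, 2 and 3 it was -0.08, -0.60 and 0.39. With the replicate number as a block, 0 genes and 0 members were called, and the members at an unadjusted p under 0.05 in edgeR were *Vim* (-0.40, adjusted p = 0.812), *S100a4* (-1.37, adjusted p = 0.812) and *Postn* (0.30, adjusted p = 0.804), 3 of 10 beside 6.06% of all genes in the same fit. These same genes were below 0.05 without a filter on low counts, beside 5.36% of all genes. The covariate fits were not run for the fibroblast list itself, whose level was the covariate.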

Other observations

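Some genes related to the members separated the genotypes although no member did, none with an adjusted p below 0.856 in edgeR. They were picked after their values were seen, beside 11.7% of all genes tested that separated in this way. Of the genes tested, 2 of 7 separated in the SPARC family, 3 of 8 among the small leucine-rich proteoglycans and 2 of 12 among the elastic fibre and microfibril genes. Of the other intermediate filament genes 1 of 6 did, and in the S100, PDGF ligand and receptor lists 0 did. Not all of these genes are named here. In the SPARC family, *Smoc1*, the gene of a secreted calcium-binding matrix protein, was at 4.70 ± 0.650 CPM in WT and 1.56 ± 0.396 CPM in KO (SD, n = 3), with a log2 fold change of -1.59 (adjusted p = 0.856, edgeR). *Spock2*, another member of that family, was at 17.2 ± 1.83 CPM in WT and 25.1 ± 0.282 CPM in KO. Among the small leucine-rich proteoglycans, *Podn* was at 7.33 ± 1.62 CPM in WT and 3.61 ± 0.482 CPM in KO, and *Prelp* at 132 ± 32.2 CPM in WT and 191 ± 16.4 CPM in KO. *Mfap2*, which encodes a microfibril protein that binds fibrillin, was at 9.16 ± 1.15 CPM in WT and 14.7 ± 3.21 CPM in KO.

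Within the fibroblast list, 2 of the 29 genes tested separated the genotypes, beside 11.7% of all genes tested, and 12 were fitted higher and 17 lower in KO. The KO libraries were all above the WT libraries for *Mmp2*, the gene of a matrix metalloproteinase, and for *Dpp4*, a surface marker of a fibroblast subset. *Dpp4* was at 8.07 ± 3.66 CPM in WT and 15.1 ± 5.08 CPM in KO, and *Mmp2* at 89.2 ± 17.5 and 115 ± 17.7 CPM (SD, n = 3). Their log2 fold changes were 0.90 and 0.37, each with an adjusted p of 0.906 in edgeR.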
